A study of Mus musculus with 2 samples.

Results

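Mu-class glutathione transferases are the enzymes encoded by the mouse genes Gstm1 to Gstm7. All 12 probe sets annotated to exactly 1 of these 7 gene symbols were taken, out of 34945 single-gene probe sets for 18193 genes. Their RNA was compared between 2 arrays, one of hepatocytes sorted as positive and one of hepatocytes sorted as negative for EzrinT567D. Ezrin is a linker between cortical actin and the cell membrane, and T567D is a phosphomimetic allele of it. Both fractions came from wild-type male FVB mice of 6 to 8 weeks. Per the labels, both followed the same injection into the tail vein of 10 µg of the transposon plasmid PT3EF5α EzrinT567D and 0.8 µg of the transposase plasmid pCMV/SB in 2 ml of saline, with collagenase isolation and a sort on GFP 1 week later. The plasmid name carries an EF5α element, the labels equate GFP with EzrinT567D, and how many mice were used, whether they were pooled and whether one set of livers gave both fractions is not stated in the labels. The labels disagree on time and feeding: the description fields put both samples at 2 months and assign fast food to the positive and chow to the negative sample, whereas the growth protocol gives chow for both, so diet and EzrinT567D cannot be told apart in these labels.

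Glutathione transferases join the tripeptide glutathione to reactive electrophiles, among them drug metabolites, carcinogens and products of lipid peroxidation, and the conjugates are then pumped out of the cell. Mu-class enzymes are cytosolic dimers made of identical or different mu subunits, and they are abundant in rodent liver. Their genes lie side by side in a tandem cluster and are targets of the oxidant-responsive transcription factor NRF2 and of the xenobiotic receptor CAR. Several are expressed most in hepatocytes around the central vein.

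In the RefSeq gene table (GRCm38.p6), the 7 genes follow one another on chromosome 3 without another protein-coding gene between them, in the order Gstm5, Gstm7, Gstm6, Gstm3, Gstm2, Gstm1 and Gstm4. Gstm5 lies on the plus strand and the others on the minus strand. Entrez identifiers matched all 12 probe sets to these genes. The promoter windows below run from 250 bases before to 50 after an annotated start site and are credited to RefSeq, build GRCm38.p6. They are shown for 3 neighbouring genes that read higher in the positive array, Gstm3, Gstm2 and Gstm1, and for Gstm5, at the edge, with nearly equal signals. Capitals mark a match to 1 of 4 motifs searched on both strands, none of which overlapped: the antioxidant response element core TGACNNNGC that NRF2 binds, the TCF and LEF core CTTTGAA or CTTTGAT used by WNT signalling, and the nuclear receptor half-site AGGTCA. The windows lie at chr3:107969125-107969424 (Gstm3), chr3:107986371-107986670 (Gstm2), chr3:108017769-108018068 (Gstm1) and chr3:107895604-107895903 (Gstm5, plus strand), and each is written 5′ to 3′ along its gene.
Gstm3: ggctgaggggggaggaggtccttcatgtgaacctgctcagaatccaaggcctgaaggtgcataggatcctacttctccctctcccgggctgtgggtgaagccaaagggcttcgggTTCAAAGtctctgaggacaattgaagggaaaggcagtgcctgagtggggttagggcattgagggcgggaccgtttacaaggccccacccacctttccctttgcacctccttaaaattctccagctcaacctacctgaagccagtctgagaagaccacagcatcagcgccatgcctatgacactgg
Gstm2: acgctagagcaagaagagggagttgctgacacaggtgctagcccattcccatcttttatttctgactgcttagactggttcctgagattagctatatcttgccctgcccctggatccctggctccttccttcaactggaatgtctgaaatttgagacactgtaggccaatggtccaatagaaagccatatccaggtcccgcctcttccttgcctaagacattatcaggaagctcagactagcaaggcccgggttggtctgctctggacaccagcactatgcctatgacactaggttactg
Gstm1: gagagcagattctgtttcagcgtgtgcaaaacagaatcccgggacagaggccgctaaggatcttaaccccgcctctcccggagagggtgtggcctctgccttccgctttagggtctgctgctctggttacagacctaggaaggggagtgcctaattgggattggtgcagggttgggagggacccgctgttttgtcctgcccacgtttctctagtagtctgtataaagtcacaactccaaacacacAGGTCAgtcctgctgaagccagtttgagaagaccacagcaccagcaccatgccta
Gstm5: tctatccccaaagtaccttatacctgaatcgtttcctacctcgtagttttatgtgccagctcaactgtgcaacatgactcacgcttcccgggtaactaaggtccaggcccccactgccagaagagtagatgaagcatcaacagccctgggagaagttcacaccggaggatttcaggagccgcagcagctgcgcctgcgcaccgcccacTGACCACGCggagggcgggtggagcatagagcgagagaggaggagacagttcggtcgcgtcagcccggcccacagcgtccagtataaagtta

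Gstm3 held 1 match to CTTTGAA, on the opposite strand, starting 135 bases before the start site. Its neighbour Gstm2 held no match to any of the motifs. Gstm1 held AGGTCA starting 5 bases before the start site of the window shown, and its other annotated window held none. Gstm5 held TGACNNNGC starting 42 bases before the start site, and 1 of 2 Gstm7 windows held it too, while the windows of Gstm4 and Gstm6 held none of the motifs. Over all 32851 windows of this length, TGACNNNGC was found in 12.4%, CTTTGAA in 5.14%, CTTTGAT in 3.73% and AGGTCA in 16.3%. The longest run of identical letters shared by windows of different members had 16 bases and joined Gstm1 and Gstm3, tgagaagaccacagca, just after the start site of each. The next had 14 bases, atgcctatgacact, near the end of the Gstm2 and Gstm3 windows. These matches are descriptions of letters in these windows and not binding sites.

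Signals are MAS5 intensities on a linear scale, and a log2 ratio is that of the positive over the negative array. Each group held 1 array, so every difference compares 2 arrays without replicate error and no test exists. A background floor, 276.6 for negative and 334.04 for positive hepatocytes, was set from probe sets for chemosensory receptors. Most of these receptors were assumed to be silent in hepatocytes, which was not tested. All 12 member probe sets exceeded the floor in both arrays, so none was lost to the filter, although Gstm1 probe set 1425626_at read only 334.3 in the negative array. The only error that could be computed is technical: over 3122 genes with at least 2 measured probe sets, the log2 ratios of the 2 brightest differed with an SD of 0.41, and their median absolute difference was 0.25. This SD is of a difference between 2 ratios and not the spread of a single ratio. It holds no error between samples or arrays, so it serves only as a yardstick. The family was selected by gene symbol and chosen by someone who knew the log2 ratios of this comparison, so counts over them describe the family and support nothing.

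Gstm3 and Gstm2 stood highest, Gstm6, Gstm1 and Gstm7 were higher by less than 2-fold, and Gstm4 and Gstm5 were nearly level. Of the 12 probe sets, 10 were higher and 2 lower in the positive array, against 52.1% higher and 47.9% lower among the 13143 probe sets measured in both arrays. At least 2-fold higher signals were read by 3 of 12, against 1.13% of all measured probe sets, and at least 2-fold lower ones by 0 of 12, against 0.51%. The median log2 ratio was 0.49 over the 12, and 0.02 over all measured probe sets. With the brightest probe set standing for its gene, 5 of 7 genes were higher and 2 lower, against 49.8% and 50.2% of 8239 measured genes, and 2 of 7 were at least 2-fold higher, against 0.971%. At least 2-fold lower were 0 of 7, against 0.619%. Of the 12 ratios, 6 were farther from 0 than the SD of 0.41 between 2 probe sets of one gene, as were 21.9% of all measured probe sets. That SD is a yardstick and not a test of a single ratio.

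**Figure D1:**
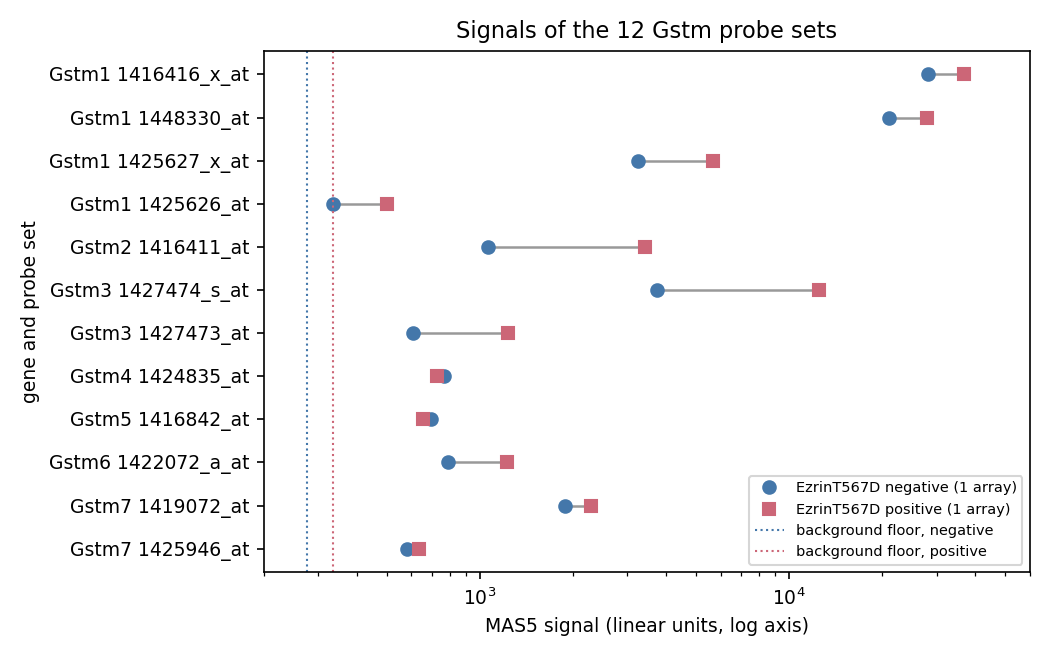
MAS5 signal (log axis) of each Gstm probe set in the negative array (circles) and the positive array (squares), 1 array each, with dotted lines at the background floors of 276.6 and 334.04. The gap between arrays is widest for Gstm3 1427474_s_at and Gstm2 1416411_at, and the symbols nearly coincide for Gstm4 and Gstm5.

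Gstm3, a mu-class transferase of the mouse liver, has 2 probe sets. Probe set 1427474_s_at read 3739.8 in the negative array and 12484.5 in the positive one, a 3.34-fold higher signal (log2 ratio 1.74). Only 6 of the 13143 measured probe sets had a higher ratio. Probe set 1427473_at read 608.0 and 1234.1, 2.03-fold higher (log2 ratio 1.02), and 133 measured probe sets had a higher ratio. Both probe sets therefore read higher in the positive array, but they differed from each other by 0.72, a gap matched or exceeded by 9.19% of the 3122 gene pairs. The suffix _s_at marks probes that several transcripts share, so the larger of the 2 ratios need not come from Gstm3 alone. The mean of the 2 log2 ratios was 1.38 (2.60-fold).

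Gstm2, whose human counterpart is known as the muscle-type mu enzyme, has a single probe set, 1416411_at. It read 1063.9 and 3415.9 (negative, then positive, as in the pairs that follow), 3.21-fold higher (log2 ratio 1.68), and 8 measured probe sets had a higher ratio. Its ratio lay 0.06 below that of Gstm3 1427474_s_at, far less than the spread between probe sets of one gene, so the order of the 2 genes is not set by these data. Its suffix carries no mark of shared probes.

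Gstm1, a major mu-class enzyme of liver that in mouse also binds the stress kinase ASK1, has 4 probe sets, and all 4 read higher in the positive array. The brightest, 1416416_x_at, read 28083.5 and 36657.1, 1.31-fold higher (log2 ratio 0.38). Probe set 1448330_at, without a mark of shared probes, read 20964.6 and 27839.3 (log2 ratio 0.41). Probe set 1425627_x_at read 3252.7 and 5661.5 (log2 ratio 0.80). The dimmest, 1425626_at, read 334.3 and 499.6 (log2 ratio 0.58). The mean was 0.54 ± 0.19 (SD, n = 4 probe sets of 1 gene, not 4 samples), or 1.46-fold. The suffix _x_at marks probes that may bind other transcripts, and the 2 brightest probe sets, one with and one without that suffix, differed by less than the spread between probe sets.

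Signals at this height sit in a range where the 2 arrays differ slightly as a whole. For 349 genes whose mean signal exceeded 10000, the log2 ratios had a median of -0.13, and for 4310 genes at 1000 or less they had a median of 0.08. With a loess correction for this trend, Gstm1 1416416_x_at had a log2 ratio of 0.50 and 1448330_at of 0.53, so both stayed below 2-fold.

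Gstm6 was read by 1422072_a_at at 787.2 and 1220.8, 1.55-fold higher (log2 ratio 0.63). Gstm7 was read by 2 probe sets, 1419072_at at 1882.6 and 2278.4 (log2 ratio 0.28) and 1425946_at at 582.4 and 635.6 (log2 ratio 0.13). Both Gstm7 ratios were within the SD of 0.41, and the Gstm6 ratio exceeded it.

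Gstm4 and Gstm5 were the only members with lower readings in the positive array. Gstm4 1424835_at read 765.1 and 725.6 (log2 ratio -0.08). Gstm5 1416842_at, whose gene is known for expression in testis and brain, read 695.9 and 653.7 (log2 ratio -0.09). Both differences were within the spread between probe sets of a gene, and the error between samples is not known. Neither can therefore be told from equal signals.

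**Figure D2:**
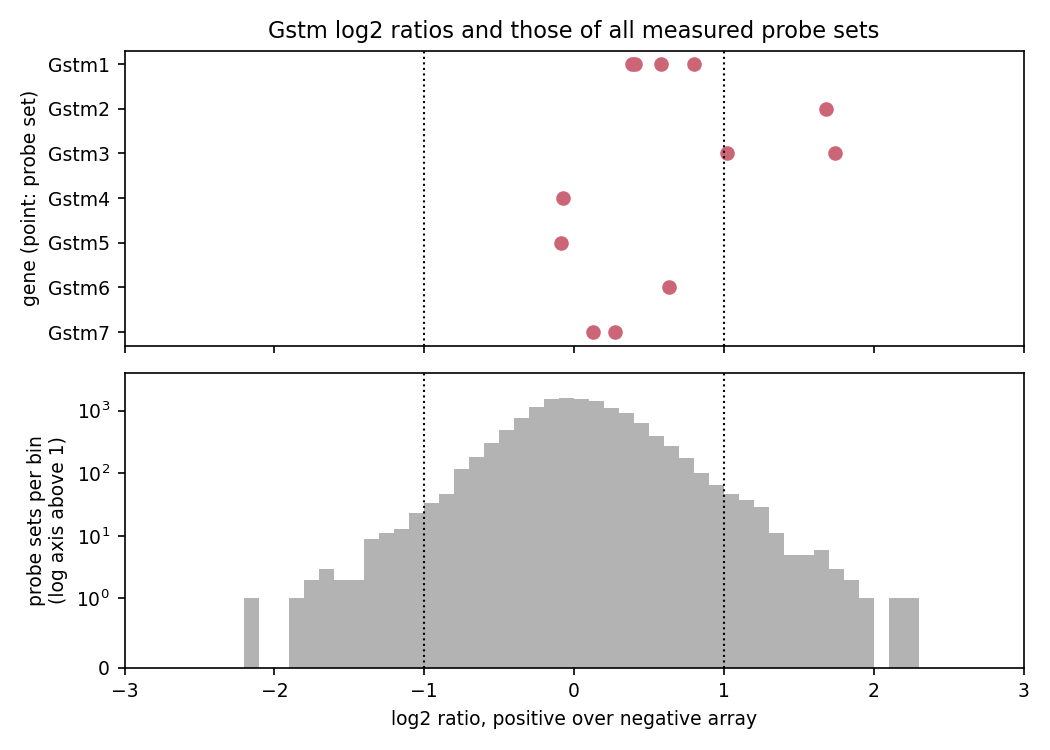
Log2 ratios of the Gstm probe sets by gene (top, each point 1 probe set) above a histogram of all 13143 probe sets measured in both arrays (bottom, bins of 0.1 on the x axis, log axis above 1), with dotted lines at 2-fold. Gstm2 and Gstm3 1427474_s_at lie in the right tail at 1.68 and 1.74, and Gstm4 and Gstm5 lie near 0.

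Affymetrix probe sets do not fully separate close paralogs. The suffix _a_at, carried by Gstm6 1422072_a_at, marks probes for several transcripts of one gene and not probes shared between genes. Of the 12 probe sets, 4 carry _s_at, _x_at or _a_at and 8 carry none of these. Among those 8, 6 were higher and 2 at least 2-fold higher, namely Gstm2 1416411_at and Gstm3 1427473_at. Of all 8858 measured probe sets without these suffixes, 106 were at least 2-fold higher. With or without a suffix, 52.1% of the 13143 measured probe sets were higher. No probe set annotated to several genes (0 of 932) named a Gstm member. Probe sequences were not used here, so how far one member's RNA adds to another's signal was not tested. In these bulk samples, more RNA per cell and more cells with the RNA cannot be told apart.

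Read along the chromosome, the ratios were highest in the middle of the cluster. With the brightest probe set for each gene the log2 ratios ran -0.09 at Gstm5, 0.28 at Gstm7, 0.63 at Gstm6, 1.74 at Gstm3, 1.68 at Gstm2, 0.38 at Gstm1 and -0.08 at Gstm4. With the mean over probe sets, Gstm7, Gstm3 and Gstm1 stood at 0.20, 1.38 and 0.54, and Gstm2 was then the highest. Protein-coding genes on either side had ratios within the SD of 0.41 between probe sets where they could be measured. So did Gstm5, Gstm7, Gstm1 and Gstm4 by their brightest probe sets. On the Gstm5 side, the growth factor gene Csf1 read 659.9 and 690.1 (log2 ratio 0.06) and Ahcyl1 read 1610.7 and 1576.6 (log2 ratio -0.03). On the Gstm4 side, the AMP deaminase Ampd2 read 1476.0 and 1571.1 (log2 ratio 0.09) and the G protein subunit Gnai3 read 3305.0 and 2800.6 (log2 ratio -0.24). Of the nearest 3 genes on the Gstm5 side and 5 on the Gstm4 side, Eps8l3, Gm12500, Gnat2 and Gpr61 exceeded the floor in neither array. The ordering was looked up after the ratios were known and is given as a description.

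**Figure D3:**
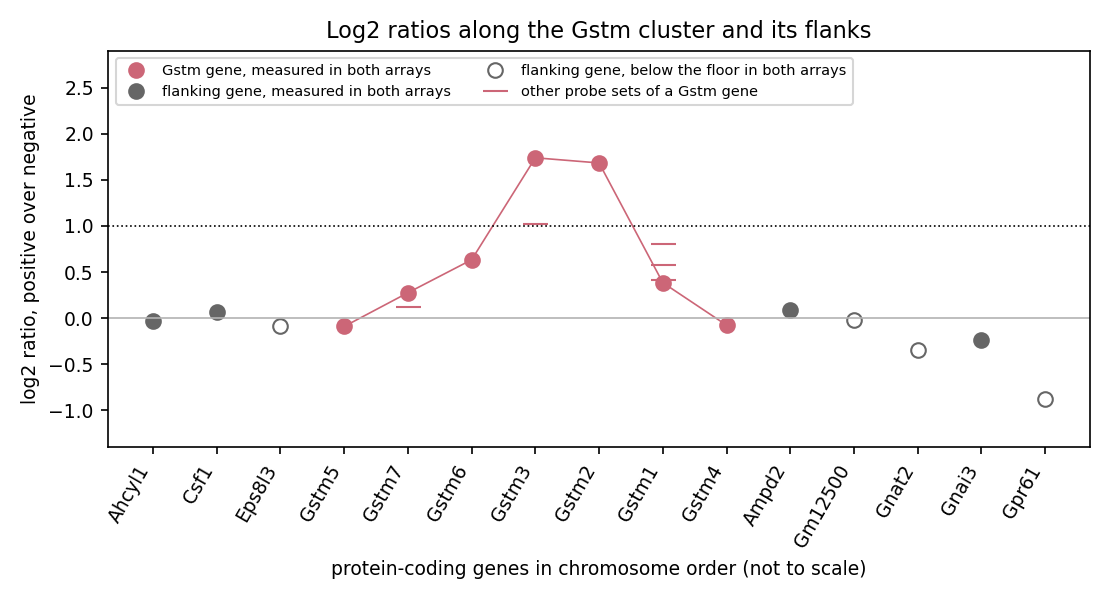
Log2 ratio of each protein-coding gene (brightest probe set) in chromosome order, not to scale, for the 7 Gstm genes, 3 neighbours on the Gstm5 side and 5 on the Gstm4 side, with dashes for further Gstm probe sets and open circles for genes below the floor in both arrays. The Gstm ratios are highest at Gstm3 (1.74) and Gstm2 (1.68), and the measured neighbours lie between -0.24 and 0.09.

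The other glutathione transferases were not higher as a group. Of 22 genes listed, 18 have a probe set of their own and 14 were measured in both arrays, 4 of them higher and 10 lower, with 0 at 2-fold in either direction and a median log2 ratio of -0.12 against -0.001 over all measured genes. The highest were the alpha-class gene Gsta3, which read 12971.2 and 19362.5 (log2 ratio 0.58, with 0.60 in its other probe set), the theta-class gene Gstt1 at 5153.4 and 6250.3 (0.28) and Gstcd at 508.1 and 558.5 (0.14). The lowest were the omega-class gene Gsto1 at 3782.1 and 2625.9 (-0.53), Gsta2 at 5444.6 and 3803.6 (-0.52) and the mitochondrial kappa-class gene Gstk1 at 8270.0 and 6205.0 (-0.41). Alpha-class genes thus lay on both sides of 0. The pi-class gene Gstp1 read 30010.2 and 27246.7 (-0.14), and the membrane-bound Mgst1 read 36516.3 and 36536.6 (0.00). Over all 16 measured probe sets of these genes the log2 ratios ran from -0.53 to 0.60, so none reached those of Gstm2 or of either Gstm3 probe set. Both Gsta3 ratios, however, exceeded those of the brightest Gstm1 (0.38), Gstm7 (0.28), Gstm4 and Gstm5 probe sets and lay near that of Gstm6 (0.63). Hpgds, Gsto2 and Mgst2 exceeded the floor in neither array, and Gstt4 exceeded it in the negative array only.

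Genes that make, recycle and export glutathione lay on both sides of 0. Of 28 listed genes with a probe set, 17 were measured in both arrays, 6 higher and 11 lower, with 0 at 2-fold and a median of -0.13. The subunits of the rate-limiting enzyme of glutathione synthesis had log2 ratios of -0.03 (Gclc, 3958.7 and 3882.8) and 0.01 (Gclm, 2630.0 and 2647.9). Glutathione synthetase, Gss, read 2690.3 and 2009.6 (-0.42), and glutathione reductase, Gsr, read 4577.1 and 5182.8 (0.18). The aminopeptidase Anpep (0.41) and the conjugate exporters Abcc3 (0.30) and Abcc2 (0.19) were highest. The gamma-glutamyl transferase family member Ggt6 (834.1 and 443.5, -0.91), the cysteine-forming enzyme Cth (-0.55) and the aminopeptidase Lap3 (-0.46) were lowest. With Gss they were the 4 genes lower by more than the SD of 0.41, and 0 were higher by more than it. The glutathione peroxidase Gpx3 exceeded the floor in the positive array only (205.4 and 432.2), so its signal was at least 1.56-fold higher.

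Targets of NRF2 other than Gstm genes had no common direction. Of 27 with a probe set, 21 were measured, 12 higher and 9 lower, with 0 at 2-fold and a median of 0.01. Blvrb, a biliverdin reductase, read 1785.4 and 3391.1 (0.93), the thioredoxin reductase Txnrd1 read 2737.4 and 4765.0 (0.80), and Ces1g had a ratio of 0.30. The metallothionein Mt1 (11505.5 and 6989.2, -0.72), Gsta2 (-0.52) and the transketolase Tkt (-0.39) were lowest. The list includes the NRF2 gene itself, Nfe2l2, and its regulator Keap1. Its measured genes Gsta2, Gstp1, Gclc, Gclm and Abcc3 were also counted in the lists above, so these lists are not separate. The classical target Nqo1 was below the floor in both arrays at 157.2 and 284.6, and Hmox1 exceeded it in the positive array only (274.4 and 373.8), at least 1.35-fold higher.

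Targets of the receptors CAR and PXR were higher more often than lower. Of 27 with a probe set, 19 were measured, 15 higher and 4 lower, with 1 at least 2-fold higher and 0 at least 2-fold lower, and a median of 0.27. That 1 gene was Cyp2c39 (498.3 and 2151.1, 4.32-fold), followed by Cyp2c50 (0.98) and the PXR gene Nr1i2 (416.8 and 736.3, 0.82). The CAR gene Nr1i3 read 948.8 and 1445.8 (0.61). The count and the median of this list thus include the genes of both receptors. Ces2a (-0.22), Cyp3a11 (-0.08) and Cyp3a13 (-0.01) were lowest, and 3 further genes exceeded the floor in 1 array only. Cyp2c38 read 271.0, just under the floor, and 1207.1, at least 4.36-fold higher. Gadd45b read 233.0 and 471.9, at least 1.71-fold higher. Cyp2b10, the standard CAR target, read 446.2 and 124.9, at least 1.34-fold lower. The list shares 5 listed genes with the pericentral list, and without them 12 of 16 were higher with a median of 0.15.

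Genes of pericentral hepatocytes other than Gstm members were mostly higher in the positive array too. Of 26 with a probe set, 23 were measured, 21 higher and 2 lower, 7 at least 2-fold higher and 1 at least 2-fold lower, with a median of 0.73. Gulo (3.49-fold), Lect2 (2.85-fold) and the transcription factor Tbx3 (2.75-fold) led, with Cyp7a1, Glul, Cyp1a2 and Oat between 2.07-fold and 2.31-fold. Rnf43, above the floor in the positive array only (164.5 and 689.6), was at least 2.49-fold higher. Sult5a1 was the exception at 4953.1 and 2349.9 (-1.08), followed by Cyp27a1 (-0.03) and Pon1 (0.08). Periportal genes, expressed most at the other end of the lobule, were lower: of 24 measured, 1 was higher and 23 were lower, 10 past 2-fold, and the median was -0.83. Aldh1b1 (-2.15), Hal (-1.84) and Etnppl (-1.74) were lowest, Gldc, Ctsc, Gas2, Cdh1, Hsd17b6, Hsd17b13 and Pigr were also past 2-fold, and Ass1 (0.13), G6pc (-0.09) and Igf1 (-0.21) were highest. Gstm2 and Gstm3 1427474_s_at thus had ratios above 22 of the 23 measured pericentral genes, all but Gulo (1.80). The other Gstm3 probe set, 1427473_at, lay below 7 of the 23. Of the other members, Gstm6 lay below 16, Gstm1 below 19, Gstm7 below 20, and Gstm4 and Gstm5 below 22. The part of lobular position in the Gstm ratios was not tested.

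**Figure D4:**
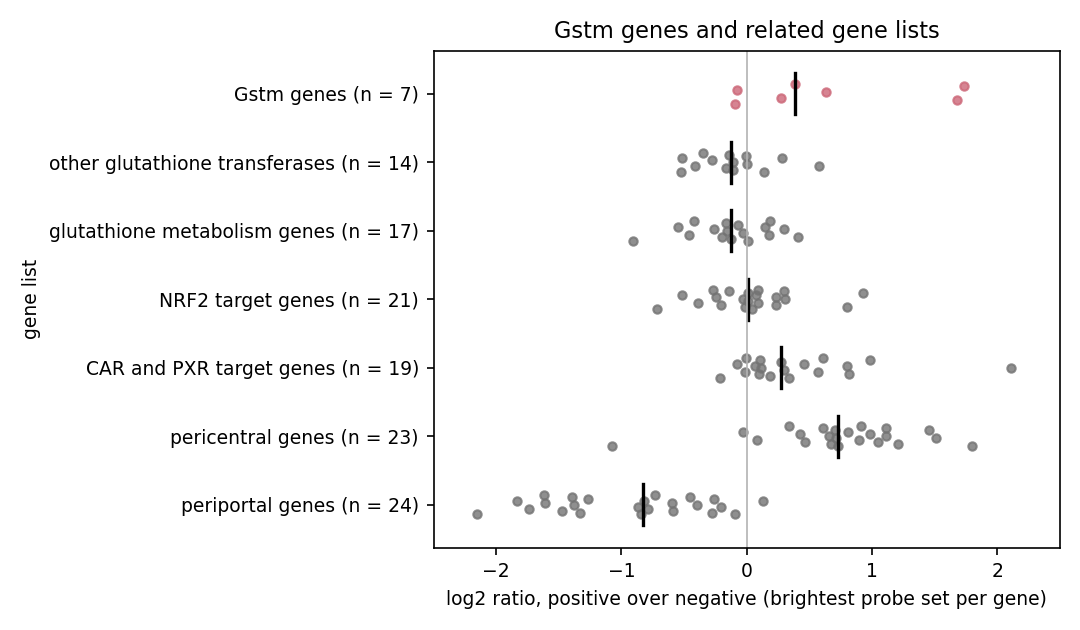
Log2 ratios of the 7 Gstm genes and of 6 gene lists (each point 1 gene measured in both arrays, by its brightest probe set; vertical bars are medians; vertical scatter within a row has no meaning). The Gstm genes run from -0.09 to 1.74, the other glutathione transferases from -0.53 to 0.58, and the pericentral and periportal medians lie at 0.73 and -0.83.

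Over the 2 arrays, the genes whose pair of log2 signals lay nearest to that of Gstm3 1427474_s_at were Igfbp1 (4343.9 and 10461.9, distance 0.33), Cyp1a2 (5137.7 and 11096.1, distance 0.49), Tsc22d1 (5609.2 and 9379.5, distance 0.72), Aqp9 (5767.6 and 9601.3, distance 0.73) and Cpox (5554.0 and 9046.9, distance 0.74). Distances are in log2 units. Signals of different probe sets are not on a common scale per transcript, so this likeness is one of readings in 2 arrays only.

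Hepatocyte markers were measured throughout. All 7 hepatocyte markers with a probe set were measured, at 14622.0 to 53836.3 in negative and at 11717.9 to 49685.0 in positive hepatocytes, with a summed signal of 290117.9 and 269336.4. Sums of different probe sets are not on one scale, so each is compared only between the 2 arrays. The 8 Kupffer cell and macrophage markers summed to 2555.8 and 2253.7 with 3 measured in both arrays, the 8 sinusoidal endothelial markers to 3847.7 and 4209.4 with 5 measured, and the 8 stellate markers to 3700.9 and 3427.0 with 6 measured. All 6 cholangiocyte markers (692.1 and 955.2) and all 6 markers of T, B and NK cells (831.3 and 577.1) lay below the floor in both arrays. Single markers differed by more than the sums. Of the Kupffer cell markers measured in both arrays, Csf1r had a log2 ratio of 0.33, Clec4f of -0.10 and Lyz2 of -0.40. Cd5l (339.5 and 144.8) exceeded the floor in the negative array only and was at least 1.02-fold lower. Marco (234.9 and 35.3) and Adgre1 (94.7 and 201.5) exceeded it in neither array, so they give no fold. Among all measured markers, the stellate genes Rgs5 (638.3 and 369.4, -0.79) and Lrat (362.1 and 473.5, 0.39) had the lowest and highest ratios. No marker set differed 2-fold in its sum. The sums outside the hepatocyte set include signals below the floor, so background enters them and can mask a difference. The part of other cell types in the Gstm ratios was not tested.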

How the data were processed

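RNA of 1 negative and 1 positive hepatocyte sample was measured on Affymetrix Mouse Genome 430 2.0 arrays. The deposited intensities, 1 for each probe set and linear, were made with MAS5, per the submitters' processing notes; its version and settings are not stated there. Trimming 2% at each end gave a mean of 500.0 for either array, so the authors' values carry a common scaling, and a shift of the whole transcriptome cannot be seen. Groups came from the group label. Of 45101 probe sets, 34945 carried 1 gene symbol, 932 with several symbols were left out, and control probe sets were not used. The floor was the 95th percentile of 84 receptor probe sets in each array, without pseudogenes. Measured means above the floor in both arrays. Log2 ratios were computed in Python 3.11.15 with numpy 2.4.6 and pandas 2.3.3, and loess with statsmodels 0.14.6 over a span of 0.3. The calculation was tested on simulated data with known ratios. Those ratios lay past 2-fold in bright probe sets with little noise, so this checked the code and not the ratios reported here. No test between groups exists with 1 array each. From each list, the 3 highest and 3 lowest measured ratios and those past 2-fold were named, and from the family all members. The members and all lists were chosen with earlier results of these data known. Other named examples were chosen after seeing their values. The array's number limits the precision. Alternatives, 9 in all, were another floor percentile, the higher of both floors, no floor, quantile normalization, loess, median centring, an offset of 50, leaving out probe sets with the suffix _s_at, _x_at or _a_at, and the mean over probe sets.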

Additional observations from a re-analysis of the deposited data

How the results depend on the processing

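Of 231 values recomputed under 9 alternatives, 230 stayed within the SD of 0.41 between probe sets of a gene (counts within 1.5 times). A change of floor leaves each single ratio as it is, and median centring shifts all ratios by one constant. Many of these values were thus fixed in advance, and their count does not measure how stable the ratios are. The value that moved was Gstm3 taken by its brightest probe set, at 1.02 once probe sets with the suffix _s_at, _x_at or _a_at were left out. The count of member probe sets at least 2-fold higher was 3 with 99th percentile, common or no floor and with median centring. Over all measured probe sets, these settings gave 110 of 11260, 110 of 12417, 3649 of 34945 and 138 of 13141. Without a floor, the count of 3 thus stood against a far larger share of all probe sets. The member count was 2 after quantile normalization, loess or an offset of 50. There Gstm3 1427473_at had log2 ratios of 0.985, 0.997 and 0.965, just under 2-fold. Over all measured probe sets, these gave 124 of 13143, 119 of 13099 and 111 of 13143. Without _s_at, _x_at and _a_at probe sets the member count was 2 of 8, against 106 of 8858. Gstm2 ran from 1.64 to 1.72, Gstm3 1427474_s_at from 1.72 to 1.85, and the family median from 0.34 to 0.52. The 99th percentile floor left out Gstm1 1425626_at. The median of the NRF2 targets, near 0, was -0.005 after median centring, the 1 sign change. No paired analysis was possible because each group held 1 array.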
